A study of Mus musculus with 10 samples.

Results

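Whole livers of 4-week-old male mice were split by the state of their circadian clock, read from 9 clock genes on each array. For each of the 10 liver arrays, a score was formed as the mean log2 level of Dbp, Tef, Per3, Ciart and Usp2 minus the mean log2 level of Arntl, Npas2, Clock and Nfil3, centred on the mean over arrays. The 4 arrays with a score above 0 are called Dbp-high livers, the 6 arrays below 0 are called Arntl-high livers, and together they are all 10 samples of the series. The sides were chosen by these 9 measured levels, so the 9 genes are described without a test, and a p-value for any other gene says how closely that gene followed the split in these 10 arrays, not what a treatment did. No source used here gives times of collection, lighting or feeding.

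The series asked what in utero loss of the mitochondrial superoxide dismutase SOD2 leaves behind in the liver. Its groups were 3 arrays of livers with rtTA and SOD2 shRNA 1, 3 arrays of livers with rtTA and SOD2 shRNA 2, and 4 arrays of livers with rtTA only. All 3 groups carry Rosa26-rtTA, the doxycycline-dependent transactivator expressed from the Rosa26 locus, and per the labels' protocols the knockdown ran from embryonic day 0 to day 12.5 through doxycycline chow (625 mg/kg) fed to the dams, so the livers were taken weeks after it ended. The rtTA livers were littermate controls. A single control came from the litters of shRNA 1 and the other 3 from those of shRNA 2, with no statement of which array is which. The labels do not state that the arrays are of different animals, and p-values therefore cover only the spread between these samples, which may be technical.

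The liver clock is a transcriptional loop. CLOCK (or its relative NPAS2) pairs with ARNTL, also called BMAL1, and activates genes through E-boxes. Among those genes are the Per and Cry repressors, the Nr1d1 and Nr1d2 genes for REV-ERB proteins that repress Arntl, and the PAR bZIP factors Dbp, Tef and Hlf. DBP, TEF and HLF activate, and NFIL3 represses, genes with D-boxes. Transcripts of Dbp and of Arntl therefore peak at opposite times of day in mouse liver.

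The promoters of 6 genes are shown. In 5 of them the search letters of the clock loop's elements occur close to the start of the gene, and Hspa5 is shown for an element of the unfolded protein response, whose genes are described further on. Sequences are from RefSeq, assembly GRCm38.p6, written 5′ to 3′ on the strand given after each interval, and capitals mark the matches. Ciart and Tef carry the E-box CACGTG, Per3 carries the D-box TTANGTAA, Arntl and Nfil3 carry the REV-ERB and ROR element AGTAGGTNA (reverse strand in Nfil3), and Hspa5 carries the endoplasmic reticulum stress element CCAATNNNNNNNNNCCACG.
Ciart, chr3:95882249-95882358 (minus): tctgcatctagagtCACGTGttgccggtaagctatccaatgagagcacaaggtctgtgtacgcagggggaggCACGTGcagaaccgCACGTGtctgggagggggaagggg
Tef, chr15:81802518-81802582 (plus): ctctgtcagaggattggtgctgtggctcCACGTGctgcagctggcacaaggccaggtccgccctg
Per3, chr4:151044786-151044885 (minus): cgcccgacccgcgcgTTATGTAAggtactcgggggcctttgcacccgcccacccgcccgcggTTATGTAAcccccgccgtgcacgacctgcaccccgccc
Arntl, chr7:113207492-113207521 (plus): attggtcggaaAGTAGGTTAgtggtgcgac
Arntl, chr7:113207530-113207559 (plus): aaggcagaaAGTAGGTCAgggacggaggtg
Nfil3, chr13:52981035-52981064 (minus): cggcgctcggaacTGACCTACTaacacaca
Hspa5, chr2:34772005-34772069 (plus): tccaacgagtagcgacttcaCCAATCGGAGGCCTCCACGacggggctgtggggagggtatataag

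Both strands were searched in windows from 250 bases before to 50 bases after each listed start. Over all 27025 genes with such a window, 8.09% held the E-box, 2.72% the D-box, 0.699% the REV-ERB and ROR element and 0.137% the stress element. Of the 5 genes on the Dbp side of the score, 2 held an E-box and 1 held a D-box. Of the 4 genes on the Arntl side, 2 held the REV-ERB and ROR element, whose letters were fixed after the Arntl window had been looked at. A match is a description of letters, and a window without one says nothing about a factor.

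The 2 sets of livers stood well apart on the score that defined them. The Dbp-high livers scored 1.70 (shRNA 2 replicate 3), 1.30 (rtTA replicate 1), 1.25 (shRNA 2 replicate 1) and 0.755 (shRNA 1 replicate 1). The Arntl-high livers scored -0.518 (shRNA 2 replicate 2), -0.637 (rtTA replicate 3), -0.863 (rtTA replicate 4), -0.914 (rtTA replicate 2), -0.952 (shRNA 1 replicate 2) and -1.12 (shRNA 1 replicate 3). No array lay between -0.518 and 0.755, the values just outside and just inside the threshold. Leaving any of the 9 genes out of the score, or scaling each gene to unit SD, moved 0 arrays across 0.

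**Figure D1:**
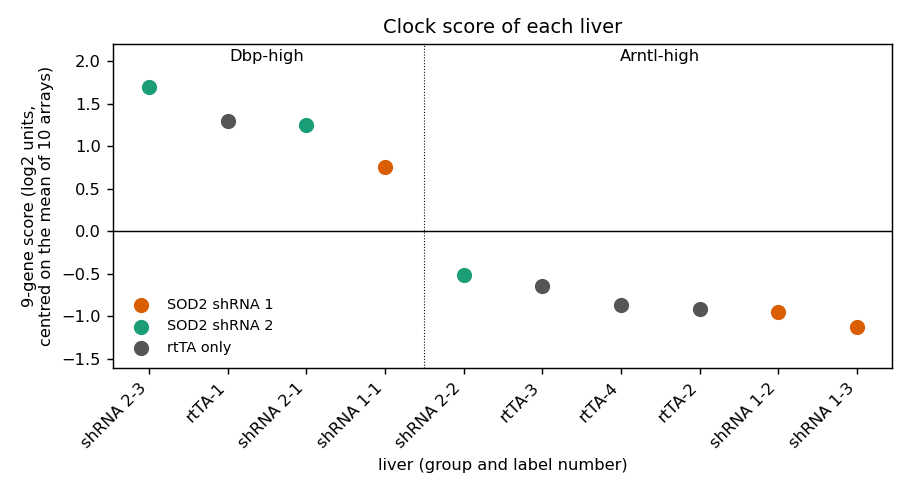
Clock score of each liver (log2 units, centred on the mean over arrays), with Dbp-high livers (score above 0) left of Arntl-high livers (score below 0) and livers ordered by score. Each point is 1 array coloured by genotype group, every genotype group holds livers of both sides, and the gap runs from -0.518 to 0.755.

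Among the genes of the Dbp side, Dbp itself, the D-box activator, averaged 8.73 ± 0.33 in Dbp-high livers (SD, n = 4) and 7.23 ± 0.31 in Arntl-high livers (SD, n = 6), a difference of 1.5 on the log2 scale or 2.82-fold. All levels below are deposited log2 values, on which a difference of 1 is a doubling, and in whole tissue fewer cells of a type and less RNA per cell cannot be told apart. Usp2, a rhythmic ubiquitin protease, averaged 7.05 ± 0.16 in Dbp-high livers and 5.84 ± 0.19 in Arntl-high livers. The period gene Per3 averaged 6.42 ± 0.40 in Dbp-high livers and 5.13 ± 0.30 in Arntl-high livers, and Ciart, a repressor of CLOCK and ARNTL also called CHRONO, averaged 5.88 ± 0.28 in Dbp-high livers and 4.80 ± 0.20 in Arntl-high livers. Tef, a second D-box activator, had the narrowest spread, at 6.53 ± 0.14 in Dbp-high livers and 5.79 ± 0.08 in Arntl-high livers.

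On the other side of the score, Arntl had 6.86 (shRNA 1 replicate 1), 6.29 (shRNA 2 replicate 1), 5.44 (shRNA 2 replicate 3) and 6.15 (rtTA replicate 1) in the Dbp-high livers. In the 6 Arntl-high livers it lay at 7.71 ± 0.18 (SD), so the groups did not overlap and the Dbp-high livers were the more scattered. Clock spanned 9.31 to 9.67 in Dbp-high livers and 9.91 to 10.15 in Arntl-high livers, the smallest difference of the 9 genes at -0.49. The D-box repressor Nfil3 averaged 6.13 ± 0.29 in Dbp-high livers and 6.94 ± 0.29 in Arntl-high livers. Npas2 differed by -0.86, with 4.01 ± 0.33 in Dbp-high livers and 4.87 ± 0.31 in Arntl-high livers, and its groups overlapped.

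The 4 Dbp-high livers were not alike in every clock gene. shRNA 2 replicate 3 had the highest Dbp (9.09) and Per3 (6.98) and the lowest Arntl (5.44) of all 10 arrays. The same liver had the lowest Ciart of the Dbp-high livers, at 5.48. shRNA 1 replicate 1 had the highest Ciart (6.10) and Usp2 (7.27) with the lowest Dbp (8.29) and the highest Arntl (6.86) of the 4.

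**Figure D2:**
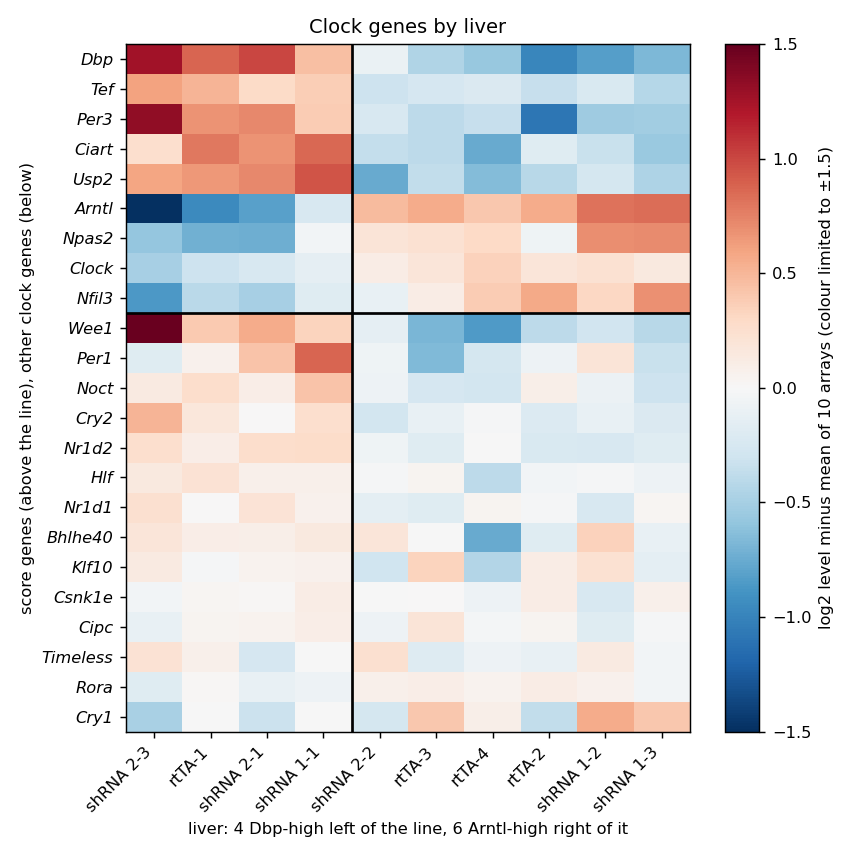
Levels of the 9 score genes and the other core clock genes in each liver, as log2 difference from the mean over the 10 arrays, with Dbp-high livers left of Arntl-high livers and columns ordered by score. The score genes split by construction, while Wee1, Nr1d2, Cry2, Noct and Hlf, which the score did not use, were each above their Arntl-high range in every Dbp-high liver.

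Other genes of the clock were then compared between the sides. Of 19 core clock and output genes outside the score, 14 were tested. Bhlhe41 was below the level filter (mean log2 3.98, the 40th percentile), and the rest were not analysed here. None of the 14 passed the test (limma, adjusted p under 0.05), and 0 of 13299 genes (0%) did so in either direction. Of the 14, 11 had a positive fitted difference, against 45.8% of all genes tested, with a median of 0.17 against -0.01 over all genes. An unadjusted p under 0.05 in the higher direction was reached by 5 of the 14, against 4.39% of all genes, and 5 of the 14 had every Dbp-high liver above every Arntl-high liver, against 0.902%. Without the array nearest to 0 on each side, 2 of the 14 reached that p.

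Wee1, a kinase that holds back entry into mitosis and is a known target of the clock in mouse liver, had the greatest difference of these genes. Its level was 5.75 (shRNA 1 replicate 1), 5.98 (shRNA 2 replicate 1), 6.90 (shRNA 2 replicate 3) and 5.81 (rtTA replicate 1) in Dbp-high livers, against 4.57 to 5.29 (median 5.02) in Arntl-high livers. Each Dbp-high liver was above all 6 Arntl-high livers, and the fitted difference was 0.96 ± 0.18 (SE, adjusted p = 0.237, limma). Within genotypes it was 0.68 in shRNA 1, 1.15 in shRNA 2 and 1.03 in rtTA livers.

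Of the REV-ERB genes, Nr1d2 had 8.27, 8.26, 8.25 and 8.10 in Dbp-high livers (in the array order given for Wee1, as in all such lists below), against 7.75 to 7.99 (median 7.82) in Arntl-high livers. The difference was 0.35 ± 0.08 (SE, adjusted p = 0.297, limma) with no overlap. Nr1d1 had 8.61, 8.75, 8.78 and 8.55 in Dbp-high livers, against 8.30 to 8.58 (median 8.46) in Arntl-high livers, a difference of 0.20 with overlapping ranges. Rora, an activator at the same element, differed by -0.12 (adjusted p = 0.581, limma) and overlapped.

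Among the repressors, Cry2 had 6.90, 6.66, 7.16 and 6.82 in Dbp-high livers, against 6.38 to 6.63 (median 6.49) in Arntl-high livers, which did not overlap and differed by 0.40. Cry1, its paralog, went the other way at -0.22 (adjusted p = 0.623, limma), with overlapping ranges of 4.90 to 5.39 in Dbp-high livers and 5.02 to 5.95 in Arntl-high livers. Per1 had 8.24, 7.79, 7.18 and 7.43 in Dbp-high livers, against 6.70 to 7.56 (median 7.20) in Arntl-high livers, so within the Dbp-high set it was highest in the liver with the least Dbp. Cipc, an inhibitor of CLOCK, and Csnk1e, a kinase of PER proteins, differed by 0.06 and 0.07, with overlap. Timeless differed by -0.03.

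Of the output factors, Noct, which encodes the phosphatase nocturnin, had 4.76, 4.44, 4.47 and 4.60 in Dbp-high livers, against 4.02 to 4.42 (median 4.17) in Arntl-high livers. The ranges did not overlap, and the difference was 0.41 ± 0.11 (SE, adjusted p = 0.315, limma). Hlf, the PAR bZIP factor outside the score, had 7.35, 7.35, 7.42 and 7.49 in Dbp-high livers, against 6.89 to 7.32 in Arntl-high livers, a difference of 0.20 without overlap. Klf10 and Bhlhe40 differed by 0.13 and 0.15 and overlapped.

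Across all genes, the split left few differences of any size. Of 13299 genes tested, 584 (4.39%) were higher and 818 (6.15%) lower in Dbp-high livers at an unadjusted p under 0.05, and 1402 (10.5%) in either direction. A fitted difference beyond 0.5 in size was found for 113 genes (0.85%) and beyond 1 for 7 genes (0.0526%). The median SE of a difference was 0.1. When each array was first centred on its median, which moved the median difference of all genes to -0.04, the counts at the unadjusted threshold were 402 higher and 974 lower, or 29.2% higher against 41.7% in the values as deposited.

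**Figure D3:**
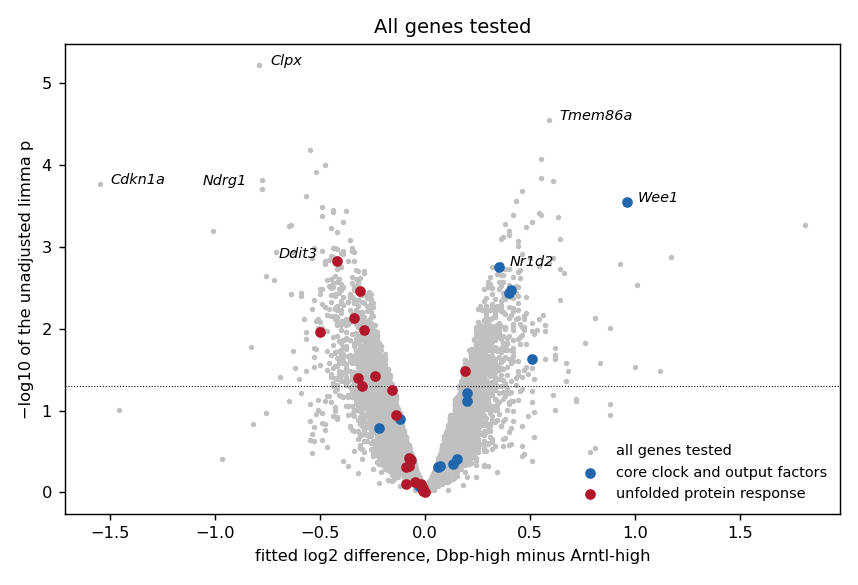
Fitted difference of each of the 13299 genes, Dbp-high minus Arntl-high (log2, horizontal axis), against the size of its unadjusted p (−log10, vertical axis), 1 point per gene, with core clock genes in blue, unfolded protein response genes in red and a dotted line at the unadjusted threshold. Clpx lies alone at the top left, Cdkn1a and Elovl3 lie furthest left and Cyp2a4 furthest right, and no gene passed an adjusted p of 0.05.

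The gene that followed the split most closely was Clpx, which encodes the unfoldase subunit of the mitochondrial matrix protease ClpXP. Clpx had 8.82, 8.79, 8.69 and 8.52 in Dbp-high livers, against 9.40 to 9.66 (median 9.46) in Arntl-high livers. Every Dbp-high liver was below every Arntl-high liver, with a fitted difference of -0.79 ± 0.10 (SE, adjusted p = 0.0805, limma) that was -0.62 in shRNA 1, -0.69 in shRNA 2 and -1.01 in rtTA livers. Its adjusted p ran from 0.00613 to 0.357 (limma) over the processing alternatives, of which 6 of 14 called it. Among the 6 was counting the 9 score genes among the tests, which gave 0.0146 (limma). Those genes define the sides, so counting them lowers the adjusted p of other genes by construction.

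Core clock and predicted genes were left out of the 12 genes named on each side. The 12 with the smallest p on the lower side also held genes of the cell cycle, protein synthesis and the secretory pathway. Cdkn1a, the cyclin-dependent kinase inhibitor p21, had 7.84, 7.09, 6.02 and 6.16 in Dbp-high livers, against 7.96 to 9.02 (median 8.48) in Arntl-high livers. It did not overlap, and its difference of -1.55 ± 0.28 (SE, adjusted p = 0.225, limma) was the second largest in size of the named genes after Cyp2a4. It was lowest in the same livers as Arntl, shRNA 2 replicate 3 and rtTA replicate 1.

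Ndrg1, a stress-responsive gene, had 7.28, 7.30, 6.77 and 6.71 in Dbp-high livers, against 7.55 to 7.90 (median 7.77) in Arntl-high livers. Its lowest livers were those of Cdkn1a. Bet1, a SNARE of transport between endoplasmic reticulum and Golgi, had 6.71, 6.70, 6.64 and 6.50 in Dbp-high livers, against 6.83 to 7.27 in Arntl-high livers, also without overlap. Tars, the cytosolic threonyl-tRNA synthetase, spanned 9.46 to 9.60 in Dbp-high livers and 9.86 to 9.99 in Arntl-high livers, a small gap of -0.38 with very little spread on either side. Gfpt1, which makes the first committed step of the hexosamine pathway, differed by -0.44 and did not overlap. The ubiquitin ligase genes Lnx2 and Rnf125 differed by -0.57 and -0.49. Abitram and Ypel2 differed by -0.48 and -0.52. Thg1l, the guanylyltransferase of histidine tRNA, and Igtp, an interferon-inducible GTPase, differed by -0.49 and -0.44 but overlapped.

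**Figure D4:**
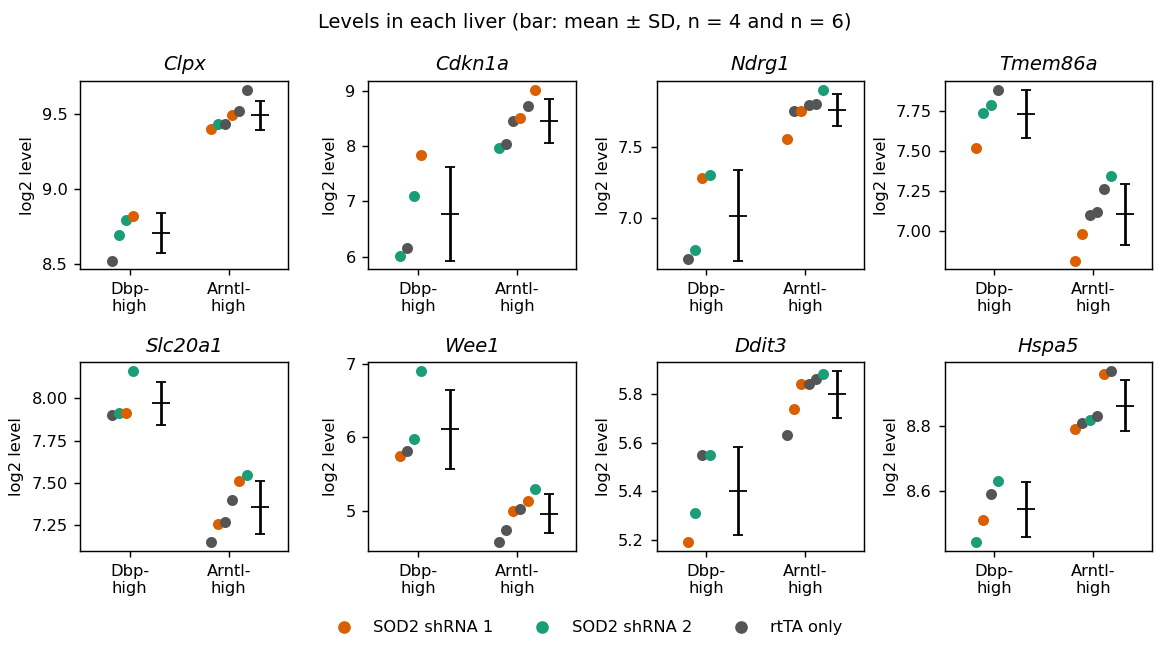
Levels (deposited log2 values) of 8 genes outside the score in the 4 Dbp-high and the 6 Arntl-high livers, 1 point per array coloured by genotype group, with bars for the mean ± SD of each side. In each of the 8 genes the 2 sets of livers did not overlap, with Tmem86a, Slc20a1 and Wee1 higher and Clpx, Cdkn1a, Ndrg1, Ddit3 and Hspa5 lower in Dbp-high livers. The 8 genes were chosen with their values known. Of all genes tested, 0.902% lay above and 1.32% below without overlap.

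On the higher side, Tmem86a, a lysoplasmalogenase gene, had 7.52, 7.74, 7.79 and 7.88 in Dbp-high livers, against 6.81 to 7.34 (median 7.11) in Arntl-high livers. The fitted difference was 0.59 ± 0.09 (SE, adjusted p = 0.19, limma). Its adjusted p was 0.0474 (limma) when the score genes were counted among the tests, which lowers it by construction. Slc20a1, a phosphate transporter whose promoter window held both an E-box and the REV-ERB and ROR element, had 7.91, 7.91, 8.16 and 7.90 in Dbp-high livers, against 7.15 to 7.55 (median 7.34) in Arntl-high livers. These levels were nearly the same in 3 of the 4 Dbp-high livers.

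Nrg4, a secreted ligand of the ErbB receptors, had 6.02, 5.70, 5.98 and 6.34 in Dbp-high livers, against 5.29 to 5.59 in Arntl-high livers, a difference of 0.63 without overlap. The multivitamin transporter gene Slc5a6 and the mitochondrial genes Coq10b (coenzyme Q binding) and Timm10b (protein import) differed by 0.51, 0.55 and 0.54, each without overlap. Ghsr, the ghrelin receptor gene, was at a low level in all livers, with 4.74 to 5.21 in Dbp-high livers and 4.17 to 4.61 in Arntl-high livers. Noct and Npas2, given above, were also at a low level. The other 5 genes of this side, Nfkb2, Ccnjl, Ace, Kif26a and H2az1, had differences of 0.55, 0.46, 0.43, 0.42 and 0.38 and overlapped. Ccnjl, Ace and Kif26a were low too, averaging 3.91, 4.19 and 3.92 in Arntl-high livers, where the level filter was 3.98. In each of these 24 genes the difference had the same sign in all 3 genotype groups, which is in part what the choice by smallest p selects.

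In the promoter windows of these genes the E-box occurred in 3 of the 12 on the higher side (Slc20a1, Coq10b and H2az1) and in 1 of the 10 with a window on the lower side (Tars), against 8.09% of all genes. The D-box occurred in 1 of the 12 on the higher side (Coq10b) and in 1 of the 10 on the lower side (Bet1), against 2.72% of all genes. The REV-ERB and ROR element occurred in 1 of the 12 on the higher side (Slc20a1) and in 0 of the 10 on the lower side, against 0.699% of all genes.

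The size of a difference and its p ranked genes differently. Cyp2a4, a steroid hydroxylase gene whose probes may also read the near-identical Cyp2a5, had 9.88, 10.63, 11.75 and 10.43 in Dbp-high livers, against 8.21 to 9.61 (median 8.83) in Arntl-high livers. Its difference of 1.81 ± 0.37 (SE, adjusted p = 0.243, limma) was without overlap, and it was 1.05 in shRNA 1, 2.98 in shRNA 2 and 1.44 in rtTA livers. With single arrays left out the difference ran from 1.26 to 2.16. The liver with the highest Cyp2a4, shRNA 2 replicate 3, also had the lowest Elovl3. Elovl3, a fatty acid elongase, had 10.51, 11.26, 6.84 and 10.83 in Dbp-high livers, against 10.75 to 12.53 (median 11.54) in Arntl-high livers. Its difference of -1.46 ± 0.80 (SE, adjusted p = 0.554, limma) was -0.74 without shRNA 2 replicate 3 and -0.71 without shRNA 2 replicate 2. Tubb2a, a tubulin gene, had 7.50, 7.03, 6.71 and 7.13 in Dbp-high livers, against 7.26 to 8.90 in Arntl-high livers, and overlapped at a difference of -1.01. The other genes beyond 1 in size were Cdkn1a, given above, Ass1 at 1.17, Esm1 at 1.12 and Tff3 at 1.01. Ass1 overlapped and its cluster read low, with 6.63, 5.69, 6.07 and 6.64 in Dbp-high livers, against 4.18 to 6.50 in Arntl-high livers. Genes in this paragraph other than Cdkn1a and Elovl3 were named for their size after their values were seen.

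The unfolded protein response list, the chaperones and regulators of protein folding in the endoplasmic reticulum, leaned to the lower side. Of 22 genes tested from a list of 24, 20 had a negative difference, with a median of -0.09 against -0.01 over all genes. An unadjusted p under 0.05 was reached by 7 on the lower side (6.15% of all genes) and 1 on the higher side, and 5 were below every Arntl-high liver in every Dbp-high liver (1.32% of all genes). None passed the adjusted test. The mean of the list, each gene centred over arrays, ran from -0.18 to -0.01 in Dbp-high livers and from -0.01 to 0.12 in Arntl-high livers. Its summed level overlapped, at 14.07 to 14.21 in Dbp-high livers and 14.18 to 14.29 in Arntl-high livers.

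Hspa5, which encodes the major chaperone BiP, had 8.51, 8.63, 8.44 and 8.59 in Dbp-high livers, against 8.79 to 8.97 (median 8.82) in Arntl-high livers. The difference was -0.31 ± 0.08 (SE, adjusted p = 0.315, limma), without overlap, and lay between -0.36 and -0.28 in the 3 genotype groups. Ddit3, the transcription factor CHOP, had 5.19, 5.31, 5.55 and 5.55 in Dbp-high livers, against 5.63 to 5.88 in Arntl-high livers, a difference of -0.42. Creld2 and Manf, secreted proteins induced by stress in this compartment, differed by -0.34 and -0.29 and did not overlap. Derl3, of the pathway that removes misfolded proteins, differed by -0.50 with overlap, as shRNA 2 replicate 1 had 5.32. Trib3, a pseudokinase gene of the same response, had the opposite sign at 0.19.

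The stress element shown above for Hspa5 occurred in 8 of the 19 list members with a promoter window, against 0.137% of all genes. They were Hspa5, Hsp90b1, Pdia6, Dnajc3, Creld2, Calr, Syvn1 and Derl3. The list was made of known genes of this response and the element belongs to it, so that count says nothing about the split. The list's count depended on the arrays used. At the unadjusted threshold the lower count was 3 without shRNA 1 replicate 1, and without the array nearest to 0 on each side (shRNA 1 replicate 1 and shRNA 2 replicate 2) 14 of 22 were lower and 0 reached it.

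The cytosolic heat shock list leaned the same way, with 13 of 16 genes lower (54.2% of all genes) and a median of -0.15. On the lower side 3 of the 16 had an unadjusted p under 0.05 (6.15% of all genes) and 2 did not overlap (1.32%). Those with such a p were Hsp90aa1 (-0.32, no overlap) and Stip1 (-0.28), a chaperone and a cochaperone, and Cacybp (-0.23, no overlap). Without shRNA 2 replicate 1 the count was 6, and it was 0 without the 2 arrays nearest to 0. Hspa1b, the inducible form, had 7.79, 6.98, 5.87 and 6.95 in Dbp-high livers, against 7.03 to 8.13 in Arntl-high livers, and shRNA 2 replicate 3 was again the lowest.

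**Figure D5:**
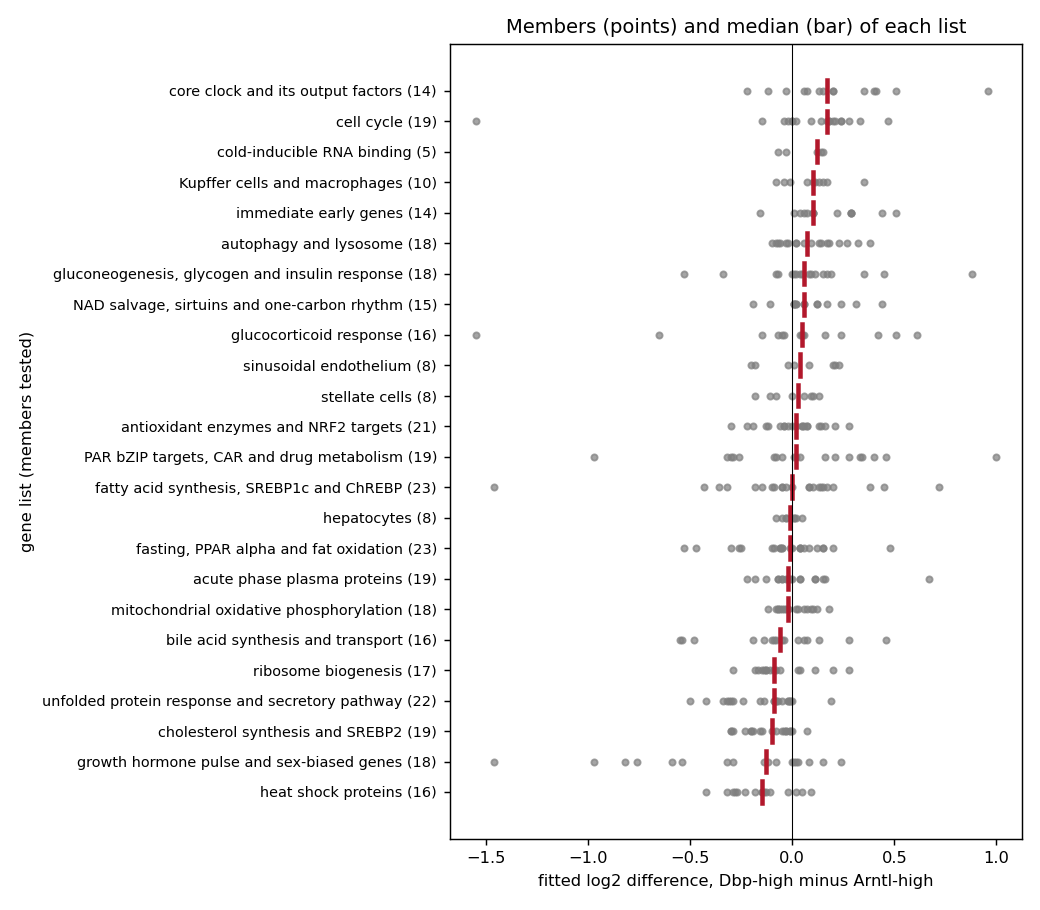
Fitted differences, Dbp-high minus Arntl-high (log2), of the tested members of each gene list, 1 point per gene with the list's median as a red bar and a line at 0. The core clock and cell cycle lists lie to the higher side, each at a median of 0.17. The heat shock list lies to the lower side at -0.15, growth hormone pulse and sex-biased genes at -0.13 and cholesterol synthesis at -0.10. The unfolded protein response and ribosome biogenesis lists each have a median of -0.09.

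Among metabolic lists, cholesterol synthesis had a negative difference in 17 of 19 genes, against 54.2% of all genes, with a median of -0.10. Hmgcs1, the synthase that makes HMG-CoA, was the only one of the 19 at an unadjusted p under 0.05 on the lower side (-0.30, adjusted p = 0.432, limma), against 6.15% of all genes. Without rtTA replicate 4 there were 6 such genes, and without rtTA replicate 1 there were 13 with a negative difference. In fatty acid synthesis 12 genes were higher and 11 lower of 23. There Thrsp (0.45), a lipogenic regulator, and Insig2 (-0.43), which retains SREBP in the endoplasmic reticulum, pointed in opposite directions.

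In drug metabolism and its PAR bZIP targets 11 of 19 were higher and 8 lower, against 7 and 12 without shRNA 2 replicate 2 and 5 and 14 without the 2 arrays nearest to 0. Alas1, the first enzyme of haem synthesis, had 10.56, 10.33, 9.65 and 9.63 in Dbp-high livers, against 8.42 to 10.53 (median 8.87) in Arntl-high livers. Its ranges overlapped through rtTA replicate 4, an Arntl-high liver at 10.53, and the difference of 1.00 was 0.13 without the 2 arrays nearest to 0. The cytochromes Cyp2c50 and Cyp2c29 differed by -0.30 and -0.26, and the flavin monooxygenase gene Fmo5 by 0.34, all with overlap.

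Of 23 fasting and fat oxidation genes 11 were higher and 12 lower, with a median of -0.01. That balance moved both ways with the arrays used. Without rtTA replicate 1, 21 were higher, while 16 were lower without shRNA 1 replicate 1. Without the 2 arrays nearest to 0, 17 were lower, with a median of -0.16. Of 18 genes of gluconeogenesis and glycogen 13 were higher, with a median of 0.06. From the first list, Pnpla2, the triglyceride lipase ATGL, had 8.83, 8.43, 8.52 and 8.16 in Dbp-high livers, against 7.74 to 8.20 (median 8.0) in Arntl-high livers, and differed by 0.48. From the second, Gys2, the liver glycogen synthase, had 11.10, 10.95, 11.19 and 10.85 in Dbp-high livers, against 10.38 to 10.94 (median 10.56) in Arntl-high livers, and differed by 0.35. In both genes 1 Dbp-high liver, rtTA replicate 1, lay within the Arntl-high range. Ppp1r3b, a subunit that brings protein phosphatase 1 to glycogen, was below in every Dbp-high liver, with 9.43, 9.39, 8.22 and 9.40 against 9.54 to 10.21 in Arntl-high livers. In the NAD list 13 of 15 genes were higher (45.8% of all genes) with a median of 0.06. Nampt, the rate-limiting enzyme of NAD salvage, and Nmrk1 had an unadjusted p under 0.05, 2 of 15 against 4.39% of all genes. After median centring 8 of the 15 were higher, and without shRNA 2 replicate 2 it was 9 of 15 and none reached that p.

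Of 16 genes of the glucocorticoid response list 10 were higher and 6 lower, with a median of 0.05. Without shRNA 1 replicate 1, 6 were higher and 10 lower. In this list the metallothionein genes Mt1 and Mt2, which respond to metals and glucocorticoids, differed by 0.61 and 0.42. Their ranges overlapped, as rtTA replicate 2, an Arntl-high liver, had 10.40 and 12.35. Within genotypes Mt1 differed by 0.87 in shRNA 1, 0.62 in shRNA 2 and 0.37 in rtTA livers. Of the immediate early genes 13 of 14 were higher (45.8% of all genes), with a median of 0.10. Atf3, a stress-induced factor gene, led at 0.44 and was the 1 of 14 with an unadjusted p under 0.05 (4.39% of all genes, higher side). Without the 2 arrays nearest to 0, 10 of 14 were higher. The mean of the list overlapped, at -0.19 to 0.18 in Dbp-high livers and -0.15 to 0.04 in Arntl-high livers. In the cell cycle list 14 of 19 were higher, with a median of 0.17. Rrm2 (0.24), Birc5 (0.47) and Ccnd1 (0.33), genes of DNA synthesis, mitosis and entry into the cycle, had an unadjusted p under 0.05 on the higher side, 3 of 19 against 4.39% of all genes, and Cdkn1a had one on the lower side. The count on the higher side was 1 after median centring, 0 without shRNA 1 replicate 1 and 5 without shRNA 2 replicate 1.

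Cell type markers were read for each list as a whole. The 8 hepatocyte markers had a median difference of -0.01, and their summed level was 15.67 to 15.80 in Dbp-high livers and 15.68 to 15.78 in Arntl-high livers. Of 6 T and NK cell markers, 4 were tested and 3 were higher, with a median of 0.23. Their summed level was 7.44 to 7.67 in Dbp-high livers and 7.23 to 7.49 in Arntl-high livers. Nkg7 (0.29) and Cd3e (0.38) had an unadjusted p under 0.05, 2 of 4 against 4.39% of all genes on the higher side. Without the 2 arrays nearest to 0, none did and the median was 0.08. Of 5 B cell markers, 3 were tested. The summed level of the list was 7.87 to 8.06 in Dbp-high livers and 7.78 to 8.03 in Arntl-high livers. The mean of its tested genes, each centred over arrays, was 0.06 to 0.15 in Dbp-high livers and -0.12 to 0 in Arntl-high livers. Cd79b, part of the B cell receptor, differed by 0.40 without overlap, 1 of 3 against 0.902% of all genes. Cd79a and Ighm differed by 0.15 and -0.04 and overlapped. Of 10 Kupffer cell and macrophage markers 7 were higher, with a median of 0.10 (0.25 without the 2 arrays nearest to 0) and a summed level of 11.79 to 12.16 in Dbp-high livers and 11.75 to 11.98 in Arntl-high livers. Of 8 sinusoidal endothelium markers 5 were higher, with Stab1 at 0.23 and Fcgr2b at -0.20, and a summed level of 11.86 to 12.06 in Dbp-high livers and 11.86 to 12.04 in Arntl-high livers. Of 8 stellate cell markers 5 were higher, with a median of 0.03. For cholangiocytes 3 of 6 markers were tested, for erythroid cells 2 of 6, for pancreas 2 of 5 and for adipose tissue 2 of 4, with medians of -0.06, -0.11, 0.03 and 0.03. None of the 5 neutrophil markers was above the level filter. The part of these cells in the other differences was not tested.

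The sides cut across genotype. Of the shRNA 1 livers 1 was Dbp-high and 2 were Arntl-high, of the shRNA 2 livers 2 and 1, and of the rtTA livers 1 and 3. The score averaged 0.19 ± 1.21 in shRNA livers (SD, n = 6) and -0.28 ± 1.06 in rtTA livers (SD, n = 4), a difference of 0.47 (two-sided exact permutation test over 210 splits, p = 0.552, where the smallest possible p is 0.00476). All 3 livers numbered 1 in the labels were Dbp-high, all 3 numbered 2 were Arntl-high, those numbered 3 held 1 Dbp-high and 2 Arntl-high livers, and the liver numbered 4 was Arntl-high. No source used here says what the numbers stand for.

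The difference between the sides was compared between shRNA and rtTA livers with an interaction term, where the rtTA estimate rests on the single Dbp-high rtTA liver. No gene passed (0 of 13299, 0%, limma), and 548 (4.12%) had an unadjusted p under 0.05. Sod2 itself, whose knockdown had ended before birth, spanned 10.24 to 10.49 over all 10 livers. In the contrast of shRNA with rtTA livers, 1 gene passed both with and without the side in the fit. It was Ctse, the protease cathepsin E, with an adjusted p of 0.000228 with the side and 4.47e-05 without it (limma). Ctse had 6.24 to 6.33 in shRNA 2 livers against 3.79 to 4.03 in all the others, and differed by 0.00 between the sides. At the unadjusted threshold 1291 genes were found with the side in the fit and 1114 without it, of which 919 were shared.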

How the data were processed

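The data are 10 Affymetrix mouse gene arrays, 1 per sample, of RNA from 25 mg of liver. The deposited log2 values per transcript cluster were made by the authors with Affymetrix Expression Console, per the submitters' processing notes. No source used here gives that program's version, its normalization or the genome build. They were used as deposited. Of 41345 clusters, the platform annotation gave 1 symbol to 23521, several to 1814 and none to 16010. The highest-mean cluster was kept for each of 22180 genes, and the 13308 genes at or above the 40th percentile of mean level (log2 3.98) entered the fit. Array medians were 4.06 to 4.17 and pairs of arrays correlated at 0.981 to 0.992, with no identical pair. Precision is limited by the number of arrays.

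limma 3.58.1 (R 4.3.3) was fitted on all 10 arrays with the side of the score and the 3 genotype groups as terms. Benjamini-Hochberg adjustment was made over the 13299 genes outside the score, since the 9 score genes define the sides. The procedure was tested on simulated data. The genes, lists and split were chosen with earlier results of these data known, so no pattern here is independent of them. The text names all tested core clock genes and the 12 genes with the smallest p in each direction. Core clock, predicted, unnamed and small noncoding genes were left out of those 12. Up to 6 members of each other list were named by the size of their statistic. Replicate numbers were not used to pair samples, since deviations of same-numbered arrays correlated between -0.25 and 0.27 over 9 pairs and the meaning of the numbers is not known here. Alternatives were other scalings, filters, covariates and thresholds, the score as a continuous term, a replicate block, and leaving out each array. Promoter letters were searched with Python 3.11.15.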

Additional observations from a re-analysis of the deposited data

Results flagged for a closer look

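In 4 of 96 sets of values 1 liver lay far from the others of its side, where chance alone gives about 1 in 20. Slc20a1 was 8.16 in shRNA 2 replicate 3, while the other Dbp-high livers had 7.90 to 7.91. Nr1d2 was 8.10 in rtTA replicate 1, below the other Dbp-high livers at 8.25 to 8.27. Per3 was 4.56 in rtTA replicate 2, below the other Arntl-high livers at 5.11 to 5.41. Hlf was 6.89 in rtTA replicate 4, below the other Arntl-high livers at 7.20 to 7.32.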

How the results depend on the processing

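The count of genes passing an adjusted p of 0.05 (limma) was 0 in each direction and 0 to 0 when each array was left out in turn. On the lower side it was 1, always Clpx, with a continuous score, a filter at the 60th percentile, genotype as 2 groups, no genotype term, a robust prior with an intensity trend, a threshold of 0.1, or the score genes counted among the tests, an alternative added after the data were seen. On the higher side that last alternative gave 1 (Tmem86a). A replicate block gave 2 higher (Wee1 and Dsg1c) and 2 lower (Elovl3 and Cyp7b1), where only number 3 holds livers of both sides. Genes whose difference varied with shRNA numbered 0, 2 over every transcript cluster and 1 without rtTA replicate 2 (range 0 to 1), and the fit could not be made without rtTA replicate 1. The contrast of shRNA with rtTA livers gave 1 gene, 0 with the 60th percentile or with 2 groups, 2 over every cluster or without the 2 arrays nearest to 0, 4 with the trend, 5 with the replicate block, and 1 to 4 without single arrays. The score difference between them ran from 0.16 to 0.99.

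For 89 genes, 1214 of 1227 differences kept their sign over the alternatives and 885 of 890 when 1 array was left out. Reversed were, with the replicate block, Cipc (-0.19), Csnk1e (-0.09), Fcgr2b (0.02), Thrsp (-0.19) and Timeless (0.35). Without the arrays nearest to 0 they were Cd3e (-0.27), Cipc (-0.03), Dnajb11 (0.03), Dsg1c (-0.02), Hsd3b5 (0.02), Klf10 (-0.02) and Timeless (0.20). Timeless was 0.02 without the genotype term. With single arrays left out Timeless ran from -0.16 to 0.08, Dsg1c from -0.08 to 0.54 and Sod2 from -0.09 to 0.02. The cause was not tested. Without rtTA replicate 1, the only Dbp-high rtTA liver, the smallest adjusted p was 0.579.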

Other observations

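Of 21 antioxidant and NRF2 target genes tested, 11 were higher and 10 lower in Dbp-high livers with a median of 0.02, and of 18 genes of oxidative phosphorylation 8 were higher and 10 lower with a median of -0.02. Autophagy and lysosome genes were higher in 12 of 18, with a median of 0.07, among them the mitophagy receptor gene Bnip3 and Map1lc3b. Growth hormone pulse and sex-biased genes were lower in 12 of 18, with a median of -0.13.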
